A study of Arabidopsis thaliana with 18 samples.

Results

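The genes described here encode the subunits of Polycomb repressive complex 2 (PRC2) and LHP1, a protein that reads the mark PRC2 writes. They are 8 named genes of 27444 nuclear protein-coding genes: CLF (AT2G23380), SWN (AT4G02020), MEA (AT1G02580), FIE (AT3G20740), EMF2 (AT5G51230), VRN2 (AT4G16845), MSI1 (AT5G58230) and LHP1 (AT5G17690, listed as TFL2 in the gene table). The genes were listed by name and not by a measured value, although earlier results of these data were known when the list was made. Each gene took, for each mark, the deposited peak that covered most of its gene body, with at least 150 bp. Chromatin immunoprecipitation followed by sequencing was made on shoot-apex-enriched tissue of Arabidopsis thaliana grown for 5 weeks in short days of 8 h light and 16 h dark at 21 °C. The genotypes were the chr4 mutant (CHR4, also called PKR1, is a CHD-family remodeller of chromatin), whose allele the labels do not give, and the wild type. Of 18 samples, 6 groups of 3 biological replicates, 12 were precipitated for H3K27me3 or H3K4me3 and 6 for histone H3. The H3 samples have no column in the tables used here.

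PRC2 trimethylates lysine 27 of histone H3, the mark of Polycomb-silenced genes, and it is required in plants for stable repression of floral and seed genes during vegetative growth. Each complex joins a catalytic SET-domain subunit (CLF, SWN or MEA), a zinc-finger subunit related to fly Su(z)12 (EMF2, VRN2 or FIS2) and the WD40 proteins FIE and MSI1. LHP1 carries a chromodomain that binds H3K27me3. H3K4me3 is found at the start of active genes.

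Each mark was deposited as 1 value for a treat pool and 1 for a control pool, each of 3 replicates of a genotype. The pool that holds the mutant is not named in the headers, so every direction below sets the treat pool over the control pool, and no value can be set against the spread between replicates. Total signal, the deposited strength of a peak, and peak height have no stated unit, and the depth of the libraries is unknown. In tissue of mixed cells, fewer cells that carry a mark and less mark per cell cannot be told apart. As a check of the tissue, the shoot apex markers CLV1, ANT and STM took H3K4me3 peaks, that of STM only 310 bp long, and WUS and CLV3 took none, as 3 of 5. All 3 green leaf markers took one, and 0 of 3 root and 0 of 3 seed markers did. An H3K27me3 peak was taken by 4 of 5 apex markers (STM, WUS, CLV3 and ANT). The same held for 3 of 3 root, 3 of 3 seed and 0 of 3 leaf markers. The summed H3K4me3 signal of the apex markers was 47155 in the treat pool and 52206 in the control pool, and that of the leaf markers was 89109 in the treat pool and 83534 in the control pool. Their part in the results below was not tested.

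Each of the 8 genes took a peak of 1 mark only. CLF, SWN, FIE, MSI1, EMF2, VRN2 and LHP1 took an H3K4me3 peak and no H3K27me3 peak, and MEA, an imprinted gene known for its role in the female gametophyte and endosperm, took an H3K27me3 peak and no H3K4me3 peak. Thus 7 of 8 genes (87.5%) carried H3K4me3 only, against 55.1% of all protein-coding genes, and 1 of 8 (12.5%) carried H3K27me3 only, against 21.3%. None carried both marks, which is close to the 3.35% of all genes that did, and none carried neither, against 20.2%. No test was made of these shares, since the genes are a named set. None of the 8 passed the call rule in its mark, which asks for a deposited FDR under 0.05 and a total signal that differs at least 1.5-fold. Few genes did: 4.12% of those with an H3K27me3 peak and 3.53% of those with an H3K4me3 peak. A count of 0 among 8 genes is therefore near the share over all genes.

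**Figure D1:**
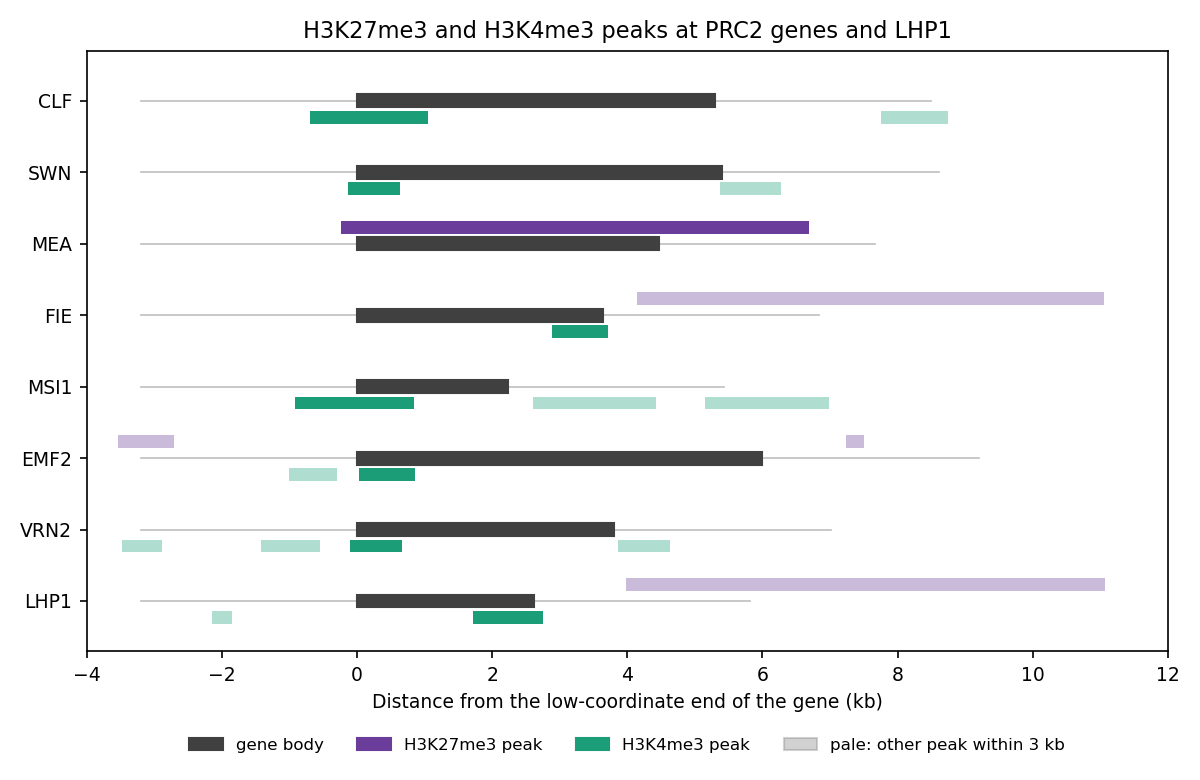
Gene bodies (black) of the 8 genes with H3K27me3 peaks (purple, above) and H3K4me3 peaks (green, below), against distance in kb from the gene end with the lower coordinate; pale bars are other peaks within 3 kb. MEA lies wholly in a purple bar of 6940 bp, and the other 7 genes have a green bar over or beside one end.

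MEA was the only one of the 3 genes for catalytic subunits to lie under H3K27me3. Its peak (chromosome 1, 544490 to 551430 in the deposited tables, whose build the submitters' processing notes name as TAIR10) was 6940 bp long and covered 100% of the gene body, with 242 bp beyond the low-coordinate end and 2228 bp beyond the high-coordinate end. No other protein-coding gene lay under it, although parts of 2 noncoding transcripts (AT1G08805 and AT1G04127) did. Its total signal was 35291 in the treat pool and 38557 in the control pool, a log2 ratio of -0.13 with an FDR of 0.688 per the authors' deposited table. The pools thus differed by 1.09-fold over the domain, and the ratio lay close to the median over all 6773 protein-coding genes with an H3K27me3 peak, which was -0.18.

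The height of the MEA peak was 7427 in the treat pool and 8999 in the control pool, a log2 ratio of -0.28 with an FDR of 0.405 per the authors' deposited table. This height stood above that of 70.9% of genes with an H3K27me3 peak in either pool, and the peak was longer than those of 87.2% of them. Divided by peak length, its total signal was 5085 per kb in the treat pool and 5556 in the control pool. That was below the 5 other Polycomb genes with an H3K27me3 peak described below, whose peaks were at most 3030 bp long. The lowest of these, VEL2, had 7674 per kb in the treat pool and 8462 in the control pool. The deposited width of the peak, which the headers do not define, was 6450 bp in the treat pool and 6420 bp in the control pool. MEA did not pass, where 4.12% of genes with an H3K27me3 peak did, and 3.88% had a height FDR under 0.05. Its p-value without adjustment was under 0.05, as it was for 96.6% of those genes, so that column separates few genes. The nearest H3K4me3 peak lay 6032 bp away and belonged to CLPP5, a subunit gene of the plastid Clp protease.

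The genes for the other catalytic subunits carried H3K4me3. CLF, whose loss gives curled leaves through ectopic floral gene activity, had its peak at 9954390 to 9956150 of chromosome 2, where total signal was 26889 in the treat pool and 27551 in the control pool. SWN, which acts in part redundantly with CLF, had a peak on chromosome 4 (886440 to 887210) with 18565 in the treat pool and 18899 in the control pool. The log2 ratios were -0.035 for CLF and -0.026 for SWN, with FDRs of 0.818 and 0.889 per the authors' deposited table. The pools differed by under 1.03-fold at both genes. The CLF peak was 1760 bp long and also covered 759 bp of its neighbour AT2G23370, so its signal belongs to both genes, while the SWN peak of 770 bp touched SWN alone. Peak height was 1.59-fold higher at CLF than at SWN in the treat pool (4945 and 3105), and the control pool gave a similar ratio (5095 and 3178), at peaks of unequal length.

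Neither WD40 gene passed. FIE, the only ESC-type subunit gene of the plant, had an H3K4me3 peak on chromosome 3 (7251700 to 7252530) with 21966 in the treat pool and 22990 in the control pool, a log2 ratio of -0.066 and an FDR of 0.699 per the authors' deposited table. MSI1, which also serves in the chromatin assembly factor CAF-1, had a peak on chromosome 5 (23555100 to 23556860) with 38424 in the treat pool and 38365 in the control pool, a log2 ratio of 0.0022 and an FDR of 0.986 in that table. MSI1 thus had almost equal signal in both pools, and its total signal stood above that of 97.0% of genes with an H3K4me3 peak in the treat pool and 95.1% in the control pool. Its peak was 1760 bp long and also covered 901 bp of TTL, so it too is shared.

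The 2 genes for Su(z)12-type subunits with a place in this set were EMF2, which represses flowering during vegetative growth, and VRN2, which is needed to keep the floral repressor FLC silent after winter cold. EMF2 had a peak on chromosome 5 (20823670 to 20824500) with 27788 in the treat pool and 30220 in the control pool, a log2 ratio of -0.12 and an FDR of 0.429 per the authors' deposited table. VRN2 had a peak on chromosome 4 (9475960 to 9476730) with 18013 in the treat pool and 21911 in the control pool, a log2 ratio of -0.28 and an FDR of 0.154 in that table. The VRN2 value was the furthest from 0 among the 8 genes, 1.22-fold in favour of the control pool, and it did not pass. Of all genes with an H3K4me3 peak, 11.9% had a ratio below that of VRN2.

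LHP1, the reader, had an H3K4me3 peak on chromosome 5 (5828860 to 5829890) with 26051 in the treat pool and 28730 in the control pool. The log2 ratio was -0.14, with an FDR of 0.372 per the authors' deposited table. By peak height LHP1 had 4547 in the treat pool and 5534 in the control pool, a log2 ratio of -0.28 that was the furthest from 0 among the 7 H3K4me3 peaks on this measure, with an FDR of 0.153 in that table. LHP1 and VRN2 therefore had the largest differences, each on its own measure, and neither passed on either.

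**Figure D2:**
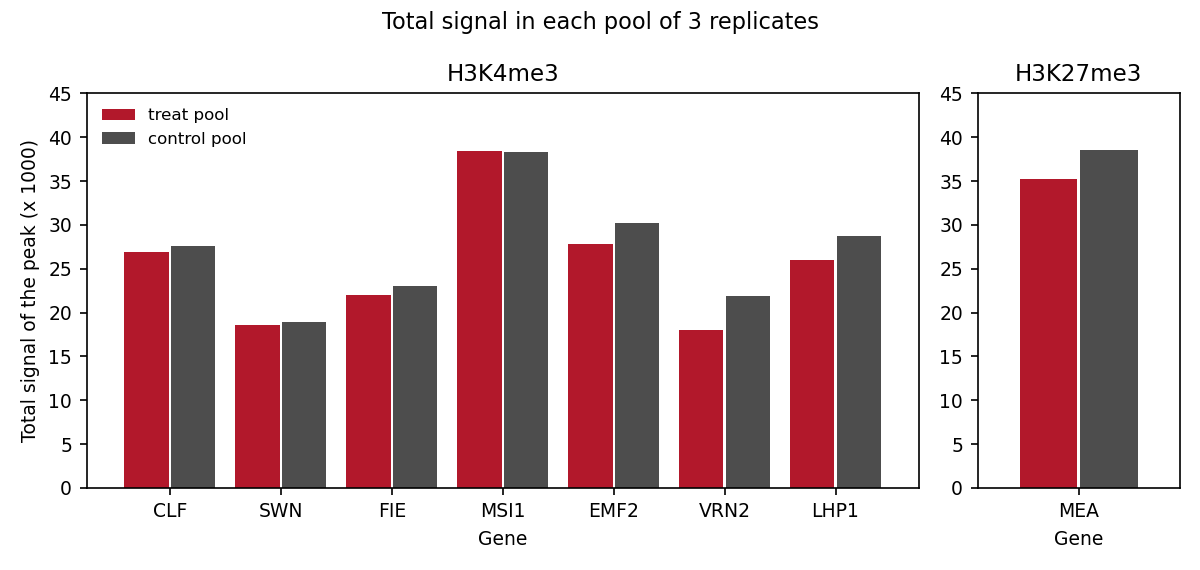
Total signal (deposited unit, x 1000) of the H3K4me3 peak of 7 genes and of the H3K27me3 peak of MEA, in the treat pool (red) and in the control pool (grey); each bar is 1 pool of 3 replicates, so there is no error bar. The bars of a gene are close to each other, with the widest relative gap at VRN2 (18013 in the treat pool and 21911 in the control pool).

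Over the 7 genes with an H3K4me3 peak, 0 passed the call rule, where 3.53% of 16040 protein-coding genes with a peak did. The deposited p-value without adjustment was under 0.05 at 6 of the 7, all but MSI1, and at 91.8% of all genes with a peak. With peak height and its own FDR, 0 of 7 were under 0.05, against 2.48% of genes. The median log2 ratio of the 7 genes was -0.066, with values from -0.28 to 0.0022, and the median over all genes with a peak was -0.078. Total signal was numerically below the control pool at 6 of 7 genes as deposited, against 70.4% of all genes. Once ratios were recentred on the median of all nuclear peaks, this held at only 3 of 7 (EMF2, VRN2 and LHP1). Height, not recentred, was below the control pool at 7 of 7, but the median height log2 ratio over all genes was also negative (-0.063). CLF (-0.043), SWN (-0.034) and MSI1 (-0.057) lay above that median, and FIE, EMF2, VRN2 and LHP1 below it.

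**Figure D3:**
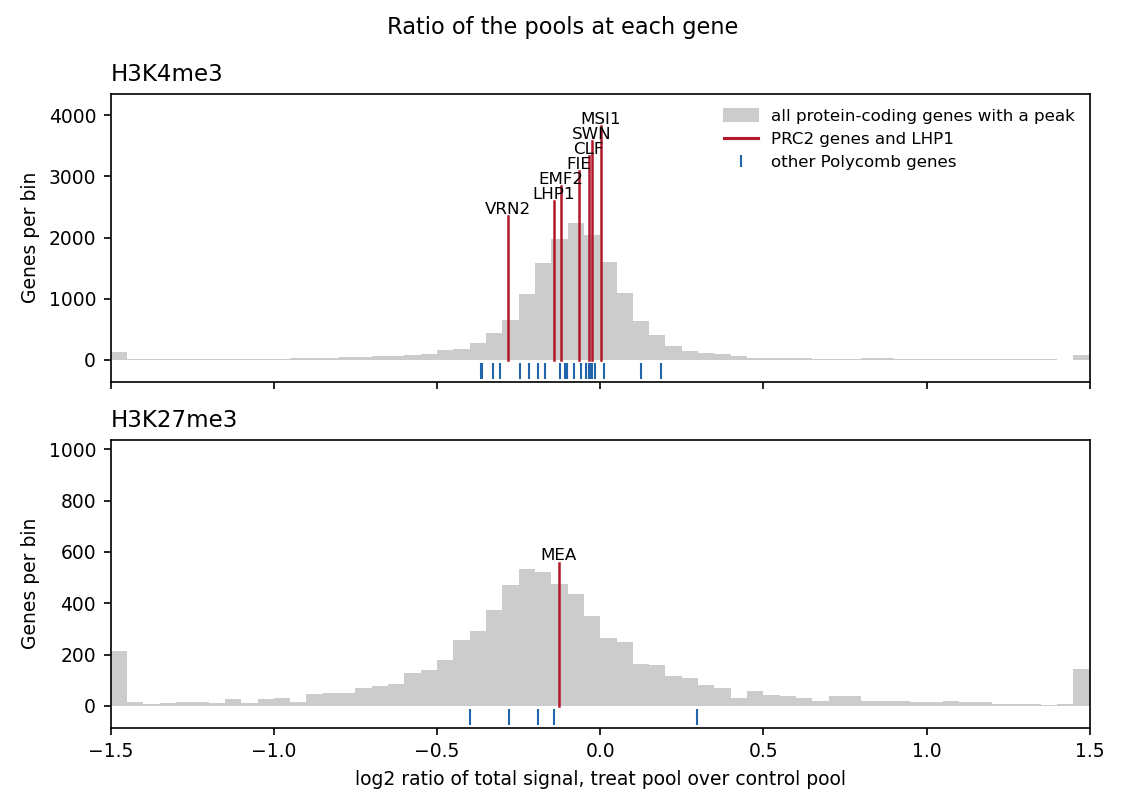
Log2 ratio of total signal, treat pool over control pool, for all protein-coding genes with a peak (grey counts per bin of 0.05, values beyond 1.5 gathered in the end bins), for the PRC2 genes and LHP1 (red lines) and for other Polycomb genes (blue ticks), by mark. The red lines lie in the body of both distributions, from -0.28 at VRN2 to 0.0022 at MSI1 in H3K4me3 and at -0.13 for MEA in H3K27me3.

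The order of the genes by H3K4me3 peak height was nearly the same in the pools. MSI1 was highest, with 5866 in the treat pool and 6102 in the control pool. In the treat pool CLF (4945), LHP1 (4547), EMF2 (4350), FIE (3274), SWN (3105) and VRN2 (2779) followed. In the control pool LHP1 (5534) stood before CLF (5095), EMF2 had 4901, FIE 3587, and VRN2 (3312) stood before SWN (3178). CLF and LHP1, and SWN and VRN2, thus swapped places between the pools, and with 1 value per pool no distance between neighbours in this order can be set against a spread. The highest gene had 2.11 times the height of the lowest in the treat pool and 1.92 times in the control pool. The heights reached from the 23.4th to the 87.8th percentile of all genes with a peak in the treat pool and from the 26.9th to the 87.3rd in the control pool.

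Divided by peak length, total signal gave another order. EMF2 had the most per kb of peak, with 33480 in the treat pool and 36409 in the control pool, and CLF the least, with 15278 in the treat pool and 15654 in the control pool. The long peaks of CLF and MSI1, both shared with a neighbouring gene, were the lowest per kb in either pool.

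**Figure D4:**
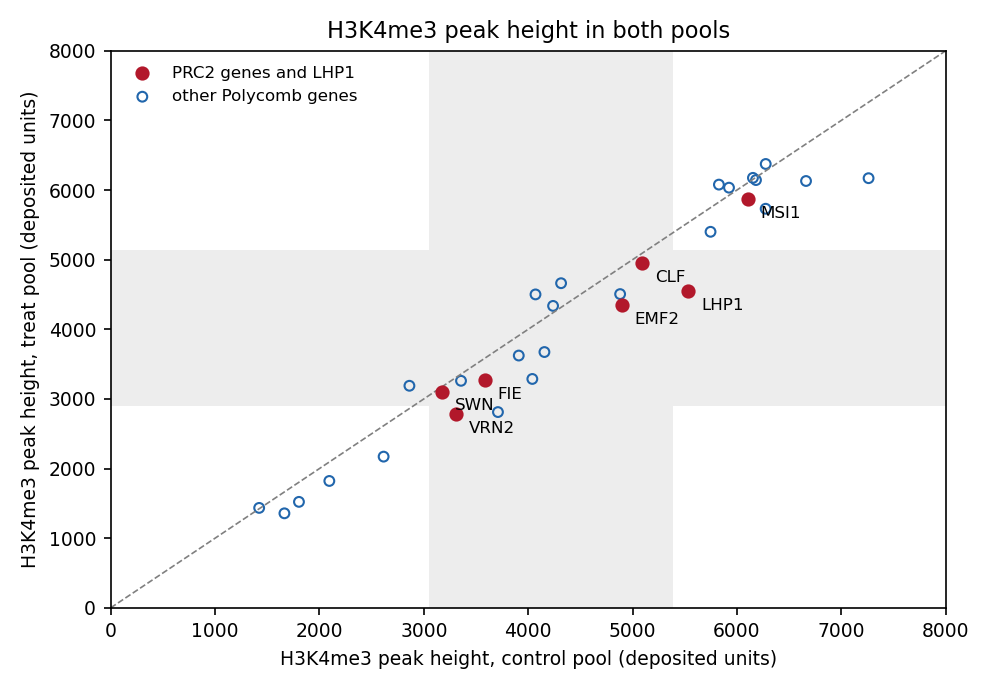
H3K4me3 peak height in the treat pool against that in the control pool (deposited units) for the PRC2 genes and LHP1 (red) and other Polycomb genes (blue circles); the dashed line marks equal heights and the grey bands the middle 50% of all genes with a peak. All 7 red points lie below the line, with LHP1 (4547 in the treat pool and 5534 in the control pool) furthest from it. The median height log2 ratio of all genes with a peak was also below 0 (-0.063).

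The H3K4me3 peaks were short against their genes and lay at one gene end. They covered between 11.7% of the gene body (SWN) and 34.4% (LHP1) in 6 of the genes, and somewhat more at MSI1, against a median of 33.8% over all genes with a peak. In 6 of 7 genes the peak ran past one annotated end, by between 78 bp (FIE) and 911 bp (MSI1), and at EMF2 it began 27 bp inside. The gene table gives no strand, so it does not say which end is the start.

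The tables also hold FDRs for local gain and local loss within a peak. Local gain was under 0.05 at MSI1 (0.0234), as 1 of 7 genes, against 14.8% of genes with an H3K4me3 peak, and local loss at VRN2 (0.0379), as 1 of 7, against 31.1%. With 1 gene each, neither count says anything about the set. For MEA in H3K27me3, the authors' deposited table gave 0.0543 for local gain and 0.0957 for local loss. Neither was under 0.05, where 10.0% of genes with an H3K27me3 peak were for gain and 17.2% for loss.

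Several of the genes bordered other peaks. Within 3 kb of the gene body there were 4 H3K27me3 peaks besides that of MEA, next to FIE, EMF2 and LHP1, so that 4 of 8 genes had H3K27me3 over or near them, against 55.1% of all protein-coding genes. A domain of 6920 bp over GATA29 and AT3G20760 began 498 bp from FIE, with a total signal of 58352 in the treat pool and 58142 in the control pool. A domain of 7090 bp over AT5G17700 began 1357 bp from LHP1, with 30696 in the treat pool and 31085 in the control pool. The FIE and LHP1 gene bodies therefore lay outside long domains whose total signal was almost equal in the pools. Within the domain beside FIE, the authors' deposited table gave a local-gain FDR of 0.00226, and within that beside LHP1 one of 0.298, where 10.0% of genes with an H3K27me3 peak were under 0.05. The peak over OLEO3, an oleosin gene of seeds 2703 bp from EMF2, had 14953 in the treat pool and 21493 in the control pool with an FDR of 0.286 per the authors' deposited table. A short peak of 270 bp on the other side of EMF2 had 8442 in the treat pool and 3367 in the control pool, with an FDR of 0.169 in that table. None of these 4 passed, where 8.53% of all H3K27me3 peaks did.

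For CLF, SWN, VRN2 and MSI1 the nearest H3K27me3 peak lay between 4064 bp (CLF) and 17069 bp (SWN) away. That nearest to VRN2 (chromosome 4, 9467310 to 9468990), 7078 bp from the gene and over AT4G16820, was the only one of these 4 to pass, against 8.53% of all H3K27me3 peaks. It had 20200 in the treat pool and 44028 in the control pool, 2.18-fold lower in the treat pool with an FDR of 0.00619 per the authors' deposited table. By height it had 3629 in the treat pool and 11111 in the control pool, with an FDR of 0.0051 in that table. The peak nearest to CLF, 230 bp long, differed the other way, with 9929 in the treat pool and 2683 in the control pool. Its log2 ratio was 1.89, with an FDR of 0.0733 in that table. The ratios were 0.44 for the peak nearest to SWN (FDR 0.499) and -0.29 for that nearest to MSI1 (FDR 0.629).

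In H3K4me3, 9 further peaks lay over or within 3 kb of the 8 genes, with log2 ratios from -0.45 to 1.99, and 1 of them passed, against 5.98% of all H3K4me3 peaks. At SWN, 1 of the 9 touched the far gene end by 27 bp but lay mainly on AT4G02030, with 27916 in the treat pool and 29362 in the control pool. The peak that passed was 290 bp long, lay 1851 bp from LHP1 inside AT5G17680 and had 7948 in the treat pool and 2004 in the control pool, 3.97-fold higher with an FDR of 0.00953 per the authors' deposited table. It is a weak and short peak: among the 976 H3K4me3 peaks of at most 300 bp, 23.7% were called higher. Around VRN2, the peak 548 bp away over AT4G16840 had 16375 in the treat pool and 22408 in the control pool, a log2 ratio of -0.45 with an FDR of 0.0595 in that table, and that 52 bp away on the other side, over AT4G16850, had 13955 in the treat pool and 15927 in the control pool, with an FDR of 0.374. Neither passed. Both ratios were below 0, as were those of 70.4% of all genes with an H3K4me3 peak. A further peak 2888 bp from VRN2 had a log2 ratio of -0.097 with an FDR of 0.717 in that table.

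Other genes linked to the Polycomb pathway were set beside the 8, as a list of 28. It holds FIS2, relatives of MSI1, VIN3 and its relatives, RING1 and BMI1-type genes, and other genes tied to the pathway, such as EBS, SHL and ICU2. Of the 28 genes, 23 (82.1%) carried H3K4me3 only, 4 (14.3%) H3K27me3 only and 1 both, shares close to those of the 8 genes. In H3K4me3, 0 of 24 with a peak passed, against 3.53% of all genes with a peak, and the p-value without adjustment was under 0.05 at 23 of 24, against 91.8%. In H3K27me3, 0 of 5 passed, against 4.12%, and that p-value was under 0.05 at 5 of 5, against 96.6%. Their median log2 ratio was -0.091 in H3K4me3 and -0.19 in H3K27me3. By height, 0 had an FDR under 0.05 in either mark, against 2.48% of genes in H3K4me3 and 3.88% in H3K27me3.

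The 5 with H3K27me3 included FIS2, the Su(z)12-type gene that works with MEA in the seed, with 17611 in the treat pool and 21394 in the control pool (log2 ratio -0.28, FDR 0.523 in the authors' deposited table). VIN3, a PHD protein gene induced by winter cold, had 43698 in the treat pool and 57571 in the control pool, with a ratio of -0.40 and an FDR of 0.190 in that table. The VIN3 relative VEL2 had 23253 in the treat pool and 25641 in the control pool. The BMI1-type gene BMI1C (AT3G23060) had 22284 in the treat pool and 18135 in the control pool, with a ratio of 0.30 and an FDR of 0.495 in that table. EMF1, a partner of LHP1 in plant Polycomb repression, carried both marks, with 44481 in the treat pool and 50772 in the control pool for H3K27me3, and 17896 in the treat pool and 16403 in the control pool for H3K4me3. MEA and FIS2, whose products join in 1 complex in the seed, both took an H3K27me3 peak and no H3K4me3 peak, but the FIS2 peak of 1550 bp covered 37.0% of its gene body, against 100% at MEA.

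In H3K4me3 the lowest log2 ratios of that list were those of MSI3 (-0.36), a relative of MSI1, and of RING1B (-0.36) and RING1A (-0.33), PRC1-type ubiquitin ligase genes. The highest were those of FVE (0.19), a further MSI1 relative that promotes flowering, EMF1 (0.13) and MSI5 (0.011, listed as NFC5). The FDRs of these 6 in the authors' deposited table were between 0.143 (RING1B) and 0.953 (MSI5). RING1A had 12761 in the treat pool and 16013 in the control pool, and RING1B had 11669 in the treat pool and 14989 in the control pool. With DRIP1 and DRIP2, which encode the BMI1-type partners of the RING1 proteins, these 4 genes had log2 ratios from -0.36 to -0.19 and a local-loss FDR between 0.0313 and 0.0446, against 31.1% of genes under 0.05. VRN2 lay within both of these ranges, with a log2 ratio of -0.28 and a local-loss FDR of 0.0379. LIF2 (0.0245) and PWO1 (0.0361) of the same list also had a local-loss FDR under 0.05. In the whole list 6 of 24 genes did, against 31.1% of all genes with a peak. The 4 RING1 and BMI1-type genes were picked out after their values were seen, and none passed the call rule. They leave out BMI1C, also a BMI1-type gene, which took an H3K27me3 peak and no H3K4me3 peak. Any difference from the PRC2 genes was not tested.

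The genes most like each of the 8 in total signal were sought among genes with the same marks, over the log2 signals of both pools. MEA was nearest to ZFP2, a zinc-finger gene, at a distance of 0.0086 among 5853 genes, and LHP1 to HAC12, a histone acetyltransferase gene, at 0.0018 among 15120. SWN was nearest to AT1G29320, FIE to AT3G53840, EMF2 to AT1G15860 and VRN2 to AT2G36980, at distances of at most 0.011. For CLF and MSI1 the nearest were the genes that share their peaks, AT2G23370 and TTL, at a distance of 0. That outcome was fixed in advance, since genes that take the same peak have the same values, so it shows no likeness. Each comparison rests on 2 values per gene.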

How the data were processed

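Reads were processed with Bowtie and TAIR10, per the submitters' processing notes. Neither normalization nor peak caller is given in the sources used here. The peak tables were deposited with 1 value per pool of 3 replicates: total signal and height (scores in no stated unit), log2 ratios of treat pool over control pool, log10 p-values and FDRs, all by the authors per the file headers. Column names do not identify genotypes. The deposited log2 ratio equalled that of the total signals, with a signal of 0 set to 1. How the FDR was computed is not given.

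Genes came from a TAIR10.1 gene table (50 of 50 listed genes matched); its coordinates are not printed. H3K4me3 peaks fell on 58.4% of genes, against 45.7% with genes shifted by 2000 bp. Pools cannot be tested across replicates, so calls rest on the deposited FDR (under 0.05) and 1.5-fold. The gene link and calls were tested on simulated data. Named were all 8 genes, listed Polycomb genes with H3K27me3 or the 3 highest and lowest H3K4me3 ratios, sharers of a peak, and nearest genes by signal. Members and lists were chosen with earlier results of these data known. Python 3.11.15, pandas 2.3.3 and numpy 2.4.6 were used.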

Additional observations from a re-analysis of the deposited data

How the results depend on the processing

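No paired analysis was possible because each genotype has 1 pooled value, and leaving out a replicate could not be done either. There were 0 calls among the 8 genes in both marks with an FDR under 0.01, at 2-fold, without a fold limit and with recentred ratios. These settings could not give another count, since the lowest total-signal FDR of the 8 genes was 0.154 and recentring leaves the FDR unchanged. With a 1 bp overlap or weak peaks left out, 7 genes kept an H3K4me3 peak and 1 an H3K27me3 peak, and 0 were called. Peak height, which has its own FDR, also gave 0 calls, with 0.153 as the lowest FDR. Asking for a peak over 50% of the gene body left 0 genes with an H3K4me3 peak, since these peaks covered at most 38.0% of the gene body. The count of 7 genes with H3K4me3 thus depends on the overlap rule, and no count of calls was possible at that setting. Recentring on all nuclear peaks, whose median was -0.14 in H3K27me3 and -0.078 in H3K4me3, turned the sign of the MEA ratio to 0.016 and of the H3K4me3 median to 0.012. Peak height turned MSI1 to -0.057. The other 46 values kept their direction or count. Unknown depth and single pools limit what a small difference can show.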
